A study of Mus musculus with 9 samples.

Results

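The interleukin 1 (IL-1) family genes described here are 10 genes taken by symbol from the deposited table of 24607 genes: Il1a, Il1b, Il1rn, Il18, Il18bp, Il1rl1, Il1rap, Il1r1, Il1r2 and Nlrp3. They were followed in macrophages grown from mouse bone marrow with macrophage colony-stimulating factor (50 ng/ml), all carrying the CX3CR1-gfp/+ genotype, in which a green fluorescent protein gene sits at 1 of the 2 copies of the Cx3cr1 locus. The groups were macrophages cultured together with neurons from dorsal root ganglia (DRG, sensory ganglia), macrophages given 0.02 ng/ml transforming growth factor beta (TGF-β), and macrophages in monoculture as the control, with a labelled time of 5 d and 3 libraries in each. All were sorted on CD11b and CD64, and total RNA was sequenced. The study's title ties sensory neurons, TGF-β and local macrophage identity, and the comparisons ask what neurons and what TGF-β alone do to these cells. The design text names 3 mice, without saying that each gave cells to all groups, so p-values measure the spread between these libraries.

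IL-1α and IL-1β are the founding cytokines of the family and signal through the receptor IL1R1 with its accessory chain IL1RAP. The antagonist encoded by Il1rn occupies IL1R1 without signaling, and IL1R2 is a decoy that binds IL-1 and has no signaling domain. ST2, the product of Il1rl1, is the receptor for the alarmin IL-33 and uses the same accessory chain. IL-18 has its own receptor chains and is held back by the soluble binding protein encoded by Il18bp. NLRP3 assembles an inflammasome, a complex that activates caspase-1, which cuts the precursors of IL-1β and IL-18. Macrophages are a main source of these cytokines.

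The widest changes within the family lay at the receptor Il1rl1, which was almost lost in co-culture, and at the agonists, with Il1b not detected in monoculture and Il1a far higher in co-culture. The antagonist Il1rn fell in co-culture and by less with TGF-β, where the call was lost under 6 of 19 alternatives. The accessory chain Il1rap and the sensor Nlrp3 did not pass the test in any comparison. Across the transcriptome 30.8% of 16328 tested genes were called in co-culture against monoculture, 15.9% higher and 15.0% lower, at an adjusted p under 0.05 (limma on log2 of the normalized count plus 10, Benjamini-Hochberg over all tested genes). Of the 10 family genes 5 were called higher, 2 lower and 3 not. For Il1a, Il1b and Il1r2 the filter on low values, a normalized count of at least 10 in at least 3 libraries, was met only through the co-culture libraries, so a higher value there was built into their being tested. Among the 7 others, 2 were called higher, 2 lower and 3 not. For TGF-β against monoculture 2.52% of genes were called, 1.13% higher and 1.39% lower, and of the 10 family genes 0 were called higher and 2 lower. For co-culture against TGF-β 25.3% of genes were called, 13.4% higher and 11.9% lower, with 4 of the 10 higher and 2 lower, and among the 7 genes that passed without the co-culture libraries 2 were higher, 2 lower and 3 not called. Both effects against monoculture rest on the same 3 control libraries.

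**Figure D1:**
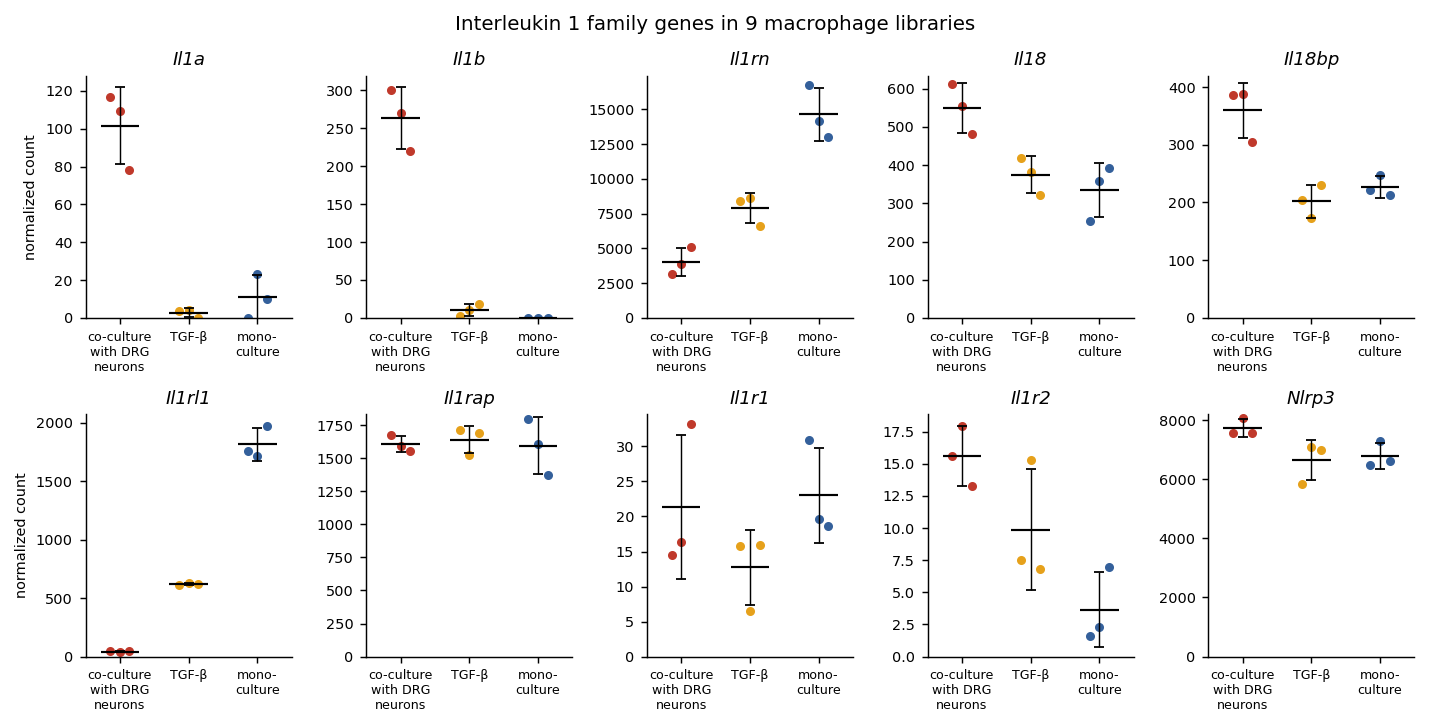
Normalized counts of the 10 genes (vertical axes, each from 0) in co-culture, with TGF-β and in monoculture; points are libraries in replicate order, horizontal lines the mean of 3 and bars 1 SD. Il1rl1 averages 41.6 in co-culture, 621 with TGF-β and 1816 in monoculture, whereas Il1b is near 0 outside co-culture.

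Depth, in M reads (M, 1e6), was 133.8 to 308.8 in co-culture, 46.8 to 151.6 for the TGF-β libraries and 73.4 to 135.6 for monoculture, and 1 read was worth 0.346 to 2.27 normalized counts. The sort antigen genes Itgam and Fcgr1 and the receptor gene Csf1r were high in every library (Csf1r 79935 to 93742 in co-culture, 78577 to 92945 in TGF-β libraries and 77170 to 86450 in monoculture). Markers of other cell types moved with co-culture. The summed level of 17 fibroblast markers was 21709 to 24002 normalized counts in co-culture, 139 to 476 in TGF-β libraries and 90.7 to 258 in monoculture, and 15 of 15 tested were higher in co-culture than in monoculture. Transcripts of the Y-linked gene Ddx3y stood at 8547 or more in replicate 1 of every group; in replicates 2 and 3 they were at 57.8 and 58.5 in co-culture and at 0 in the other libraries, so replicate 1 differs from the others in donor sex in every group, and results that change with the replicate number as a block are given with that value. Of 13 Schwann cell and satellite glia markers 9 were higher and 3 lower, and their summed level was 5666 to 6229 in co-culture, 9329 to 10644 in TGF-β libraries and 10933 to 12740.0 in monoculture. The 13 sensory neuron markers with a row summed to 602 to 866 in co-culture, 8106 to 10758 in TGF-β libraries and 8763 to 10076 in monoculture, with 1 of 5 tested higher in co-culture than in monoculture and 1 lower. Neuron markers at 0 in all libraries of a group numbered 4 in monoculture, 4 with TGF-β and 0 in co-culture. For the glia markers these numbers were 3, 4 and 0. A sum can rest on few genes, so the glia and neuron sums do not measure the amount of such cells. Fibroblasts, glia and macrophages can all transcribe genes of this family, and the part of such cells in the values below was not tested. In these libraries fewer cells of a type and less RNA per cell cannot be told apart.

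Il1b (ENSMUSG00000027398, mm10 chromosome 2, 129364570 to 129371139, minus strand) had no read in any monoculture library and clear levels in co-culture. Its normalized counts were 299.7, 270.4 and 219.9 in co-culture (865, 346 and 331 reads), 3.01, 10.9 and 18.2 with TGF-β (4, 5 and 8 reads), and 0 in all 3 monoculture libraries. Every co-culture library lay above every other library. Set against an upper limit of 3 reads in each monoculture library, the lowest co-culture library was at least 45.1-fold higher. The group difference in log2 of the value plus 10 had a limma adjusted p = 6.12e-08. Il1b reached the filter only through the co-culture libraries, so a higher value there was built into its being tested. Co-culture exceeded TGF-β by a log2 fold change of 3.78 ± 0.32 (SE, limma adjusted p = 1.14e-06). The 17 reads with TGF-β against 0 in monoculture did not pass the limma test (adjusted p = 0.146). On the same reads edgeR (adjusted p = 0.0371) and DESeq2 (adjusted p = 0.00110) called it, as did limma with 1 added in place of 10 (adjusted p = 0.0139). The range over all alternatives was 0.00110 to 0.448, so the low level with TGF-β was near the limit of detection. A gene on the opposite strand, Il1bos, overlaps its exons and averaged 2.42 normalized counts in co-culture and 0 in the other groups.

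Il1a (ENSMUSG00000027399, chromosome 2, 129299610 to 129309972, minus strand), which encodes the agonist that is active without caspase-1, lies 54.6 kb from Il1b. Its values were 117, 109 and 78.4 in co-culture, 3.76, 4.37 and 0 with TGF-β, and 0, 23.0 and 10.1 in monoculture. Co-culture stood apart from both other groups, which overlapped each other. Il1a rose against monoculture by a log2 fold change of 2.55 ± 0.40 (SE, limma adjusted p = 2.10e-04) and against TGF-β by 3.13 ± 0.40 (adjusted p = 4.83e-05). Like Il1b, it reached the filter only through the co-culture libraries. The difference between TGF-β and monoculture, -0.58 with a 95% interval from -1.45 to 0.29, did not pass (adjusted p = 0.561). Adding 10 to values this low shrinks the fold change, which ran from -1.93 to -0.17 over the alternatives, with 0 of 18 calling it. Per kb of exon, Il1b made up 71.9 to 74.4% of the summed Il1a and Il1b level in co-culture. A gene on the opposite strand, Gm14023, overlaps exons of Il1a. Gm14023 averaged 15.6 normalized counts in co-culture, 20.6 with TGF-β and 16.9 in monoculture, and the strand setting of the counting is not stated.

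The windows from 250 bases before to 50 bases after the annotated start sites of Il1b, Il1a and Il1rl1 are shown as the sequence around the transcription starts of the genes that the results turn on. They come from RefSeq (GRCm38.p6, the build that mm10 names) and read 5′ to 3′ on each gene's own strand. All 10 genes had at least 1 window, 15 in all, and Il1rl1 had 1 for each of 2 start sites. Capitals mark matches, on either strand, to any of 7 motifs. For NF-κB the letters were GGG and CC with any 5 bases between them. The AP-1 motif was spelled TGANTCA and that of PU.1, a macrophage lineage factor, was GAGGAA. For SMAD proteins, which act downstream of TGF-β receptors, the search used CAGAC, and for the GATA factors it used AGATAA. The C/EBP motif was spelled TTGCNNAA, and the box bound by the general transcription machinery TATAAA.
Il1b, chr2:129371090-129371389, minus strand: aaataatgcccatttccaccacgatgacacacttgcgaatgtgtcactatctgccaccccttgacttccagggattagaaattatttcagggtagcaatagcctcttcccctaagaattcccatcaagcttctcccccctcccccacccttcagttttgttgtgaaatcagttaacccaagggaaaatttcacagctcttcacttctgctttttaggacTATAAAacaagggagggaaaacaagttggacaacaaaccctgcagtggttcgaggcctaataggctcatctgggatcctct
Il1a, chr2:129309923-129310222, minus strand: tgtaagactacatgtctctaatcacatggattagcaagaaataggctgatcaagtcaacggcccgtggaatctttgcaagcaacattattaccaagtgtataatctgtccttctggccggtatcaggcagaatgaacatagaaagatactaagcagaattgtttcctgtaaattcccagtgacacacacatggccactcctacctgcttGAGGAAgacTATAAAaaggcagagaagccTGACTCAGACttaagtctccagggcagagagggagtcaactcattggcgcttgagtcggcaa
Il1rl1 upstream start site, chr1:40429320-40429619, plus strand: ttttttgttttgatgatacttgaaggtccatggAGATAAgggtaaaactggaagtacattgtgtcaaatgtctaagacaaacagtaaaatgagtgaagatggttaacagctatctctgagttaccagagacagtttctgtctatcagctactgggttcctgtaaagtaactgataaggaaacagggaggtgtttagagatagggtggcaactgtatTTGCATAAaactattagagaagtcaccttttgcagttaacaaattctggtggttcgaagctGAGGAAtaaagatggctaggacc
Il1rl1 downstream start site, chr1:40439379-40439678, plus strand: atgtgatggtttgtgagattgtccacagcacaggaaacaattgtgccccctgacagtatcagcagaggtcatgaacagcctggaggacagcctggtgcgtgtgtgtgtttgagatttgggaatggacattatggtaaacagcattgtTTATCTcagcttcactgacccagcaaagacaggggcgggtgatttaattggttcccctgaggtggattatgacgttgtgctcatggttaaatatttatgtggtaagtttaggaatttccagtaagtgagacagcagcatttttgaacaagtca

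The Il1b and Il1a windows both held TATAAA on the gene's strand, beginning at positions -31 and -32 from the start site, a sequence found in 13.6% of all 32851 promoter windows. The Il1a window also held GAGGAA (28.3% of windows) and, near its start site, TGANTCA (7.81%), whose last bases are the first of a CAGAC match (49.6%). Both Il1rl1 windows held AGATAA (11.2% of windows), on the plus strand at position -217 from the upstream start site and on the opposite strand at -103 from the downstream one. The upstream window also held TTGCNNAA (10.8%) and GAGGAA. None of these 4 windows held the NF-κB motif, which 50.8% of all windows and 7 of the 15 windows of the family held. These are letter matches in short windows and show no binding, and gene counts do not tell which Il1rl1 start site was in use.

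Il1rn (ENSMUSG00000026981, chromosome 2, 24336853 to 24351494, plus strand) encodes the receptor antagonist and had the highest counts of the 10 genes in monoculture. Its values were 3132, 3854 and 5097 in co-culture, 8445, 8609.7 and 6647 with TGF-β, and 16736, 14145 and 13041 in monoculture. The groups did not overlap, with co-culture lowest and monoculture highest. In co-culture Il1rn was 3.64-fold lower than in monoculture (log2 fold change -1.88 ± 0.17, SE, limma adjusted p = 7.03e-06) and also lower than with TGF-β (-0.99 ± 0.17, adjusted p = 0.00130). With TGF-β it was 1.85-fold lower than in monoculture (-0.89 ± 0.17, adjusted p = 0.0200). That last call did not hold with the replicate number as a block (limma adjusted p = 0.0723), with replicates 2 and 3 only (0.0653), or without monoculture 1 (adjusted p = 0.0570), monoculture 2 (0.0671), TGF-β 1 (0.0632) or TGF-β 2 (0.0516), although the fold change stayed between -0.97 and -0.77 when any 1 library was left out. The secreted and intracellular forms of the antagonist share the gene and were not separated.

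The balance of antagonist to agonist transcripts within each library set co-culture apart from the other groups. Both agonist genes reached the filter only through the co-culture libraries, and that limit holds for this ratio too. Per kb of exon, the ratio of Il1rn to Il1a and Il1b together was 2.62, 3.53 and 5.94 in co-culture and 438, 196 and 126 with TGF-β. In monoculture the ratio was 219 in replicate 2 and 462 in replicate 3, and at least 1184 in replicate 1, where no agonist read was seen. The co-culture ratios lay below those of every other library, while TGF-β and monoculture overlapped. Agonist reads numbered 449 to 1202 per co-culture library, 7 to 9 per TGF-β library and 0 to 20 per monoculture library, so the ratios outside co-culture are imprecise. With 3 libraries against 3 an exact permutation test could not go below 0.10, and none was run. Il1rn remained the most abundant of the 3 in every co-culture library.

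**Figure D2:**
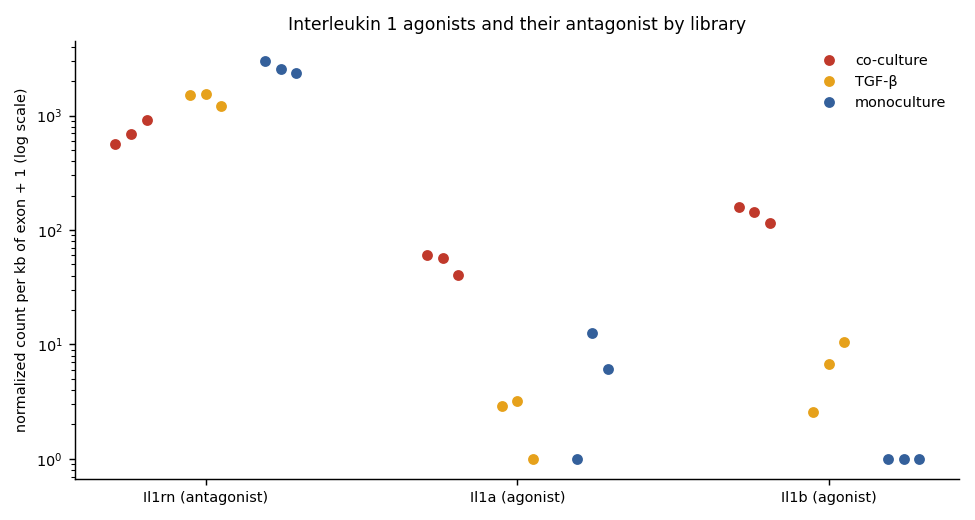
Normalized counts per kb of exon, plus 1, on a log axis for the antagonist Il1rn and the agonists Il1a and Il1b; each point is a library, with co-culture left, TGF-β in the middle and monoculture right. The antagonist averages 728 in co-culture, 1427 with TGF-β and 2645 in monoculture per kb, and the agonists are at 39.7 or more per kb in each co-culture library.

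Il1rl1 (ENSMUSG00000026069, chromosome 1, 40429570 to 40465415, plus strand), the IL-33 receptor gene, fell further in co-culture than any other of the 10 genes. Its values were 43.7, 36.7 and 44.5 in co-culture, 612.5, 632 and 618 with TGF-β, and 1762, 1712 and 1974 in monoculture. The 3 groups were far apart and tight, with TGF-β between the others. Means were 41.6 ± 4.27 in co-culture, 621 ± 9.77 with TGF-β and 1816 ± 139 in monoculture (SD, n = 3 each). By the ratio of group means, co-culture was 43.6-fold below monoculture and 14.9-fold below TGF-β. The log2 fold changes, with 10 added to each value, were smaller, at -5.14 ± 0.14 (SE, limma adjusted p = 2.16e-11) and -3.61 ± 0.14 (adjusted p = 1.21e-09). TGF-β was 2.93-fold below monoculture (-1.53 ± 0.14, adjusted p = 7.82e-05). Reads from the membrane receptor and from its soluble form, which soaks up IL-33, were not separated. Il33 itself, the ligand, was at 2.08 to 7.97 normalized counts in co-culture, 0 to 7.52 in TGF-β libraries and 0 to 0.775 in monoculture and was not tested.

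Mast cells and basophils carry much ST2, and their markers were therefore followed. Of 11 such markers, Cpa3, Tpsb2, Tpsab1, Cma1, Fcer1a and Ms4a2 have no row in the table used here. The 5 with a row summed to 3.81 to 15.3 normalized counts in co-culture, 65.9 to 116 in TGF-β libraries and 137 to 213 in monoculture. Most of that was Kit, the stem cell factor receptor, at 0.693 to 3.91 in co-culture, 61.4 to 101 in TGF-β libraries and 92.1 to 199.9 in monoculture. Mcpt4 was at 0 to 4.65 and Mcpt8 at 0.781 to 5.32 in co-culture, and both were at 0 in every TGF-β and monoculture library. Hdc was at 0 to 0.693 in co-culture, 0 to 4.51 in TGF-β libraries and 0 to 6.49 in monoculture. Mcpt4, Mcpt8 and Hdc did not reach the filter. The 2 tested markers, Kit and Gata2, were both called lower in co-culture than in monoculture, the direction of Il1rl1, and their part in the Il1rl1 result was not tested.

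Il1rap (ENSMUSG00000022514, chromosome 16, 26581704 to 26730117, plus strand), the chain that IL1R1 and ST2 share, stayed at one level. Its values were 1676, 1593 and 1557 in co-culture, 1709.7, 1521 and 1691 with TGF-β, and 1799, 1609 and 1369 in monoculture, with all groups overlapping. The log2 difference was 0.02 for co-culture against monoculture (95% interval -0.21 to 0.26, limma adjusted p = 0.907), 0.05 for TGF-β against monoculture (-0.19 to 0.29, adjusted p = 0.899) and -0.03 for co-culture against TGF-β (-0.26 to 0.21, adjusted p = 0.893). Per kb of exon, Il1rl1 stood at 0.0427 ± 0.00457 of Il1rap in co-culture, 0.626 ± 0.0511 with TGF-β and 1.91 ± 0.406 in monoculture (SD, n = 3 each). Il1rl1 thus exceeded Il1rap per kb of annotated exon in monoculture libraries only. These lengths pool the exons of all annotated forms of a gene, so the ratio need not equal that of transcript molecules.

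Il1r1 (ENSMUSG00000026072, chromosome 1, 40225080 to 40317257, plus strand), the signaling receptor of IL-1, was close to background. It had 14.6, 16.4 and 33.2 normalized counts in co-culture, 15.8, 6.56 and 15.9 with TGF-β, and 30.85, 19.6 and 18.6 in monoculture. It did not pass in co-culture against monoculture (log2 fold change -0.10, 95% interval -0.83 to 0.63, limma adjusted p = 0.864) or in either other comparison. The intervals allow changes of about 1 log2 unit on the scale with 10 added, which understates changes of genes this low. Il1r1 averaged 21.4 ± 10.3 in the co-culture libraries and 23.0 ± 6.81 in monoculture (SD, n = 3 each). Fibroblasts express Il1r1 as a rule, and their part in these values was not tested.

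Il1r2 (ENSMUSG00000026073, chromosome 1, 40074079 to 40125231, plus strand), the decoy receptor, was low throughout. It had 15.6, 18.0 and 13.3 normalized counts in co-culture, 7.52, 15.3 and 6.82 with TGF-β, and 1.62, 2.30 and 6.97 in monoculture. Co-culture did not overlap monoculture, and TGF-β overlapped both. Il1r2 too reached the filter only through the co-culture libraries. The call against monoculture (log2 fold change 0.93 ± 0.32, SE, limma adjusted p = 0.0417) held under 7 of 18 alternatives, whose adjusted p ran from 0.0336 to 0.291. It was lost with edgeR (0.0519), DESeq2 (0.0703), an added constant of 50 (0.0690), the replicate number as a block (0.0612) or replicates 2 and 3 only (0.291). It was also lost without monoculture 1 (0.105), monoculture 2 (0.101), TGF-β 1 (0.0515) or any 1 of the co-culture libraries (0.0942 to 0.167). Neutrophils also express Il1r2 and Il1b, and of their 13 markers Ly6g and Camp have no row here. Of 4 tested neutrophil markers 1 was higher and 1 lower in co-culture than in monoculture. S100a9 was at 0 to 16.4 in co-culture, 0 to 10.9 in TGF-β libraries and 0 to 2.30 in monoculture. Cxcr2 was at 0 to 0.664 in co-culture, 0 in TGF-β libraries and 0 to 4.87 in monoculture. The summed neutrophil markers were 2402 to 2720 in co-culture, 2470.2 to 2477 in TGF-β libraries and 3096 to 4098 in monoculture, and this sum too can rest on few genes. The part of such cells in the Il1b and Il1r2 values was not tested.

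Il1r2, Il1r1 and Il1rl1 belong to a cluster of 6 receptor genes spanning 478 kb of chromosome 1, in the order Il1r2, Il1r1, Il1rl2, Il1rl1, Il18r1 and Il18rap, all on the plus strand. Neighbors in it moved in opposite directions. Il1rl2, the IL-36 receptor gene just before Il1rl1, was at 620.2, 663 and 489 in co-culture, 134, 120.2 and 157 with TGF-β, and 60.1, 145 and 93.8 in monoculture. It rose against monoculture by a log2 fold change of 2.52 ± 0.26 (SE, limma adjusted p = 4.44e-06) and against TGF-β by 2.03 ± 0.26 (adjusted p = 5.14e-05). Il18rap, the signaling chain of the IL-18 receptor at the far end, was at 249.8, 341 and 445 in co-culture, 862, 1134 and 891 with TGF-β, and 1398, 1313 and 1458 in monoculture. It fell against monoculture (log2 fold change -2.01 ± 0.18, adjusted p = 9.57e-07), and TGF-β against monoculture did not pass (-0.54, adjusted p = 0.155).

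Il18r1, the IL-18-binding chain, begins 136 bases after the annotated end of Il1rl1. It held 1, 0 and 0 reads in co-culture, 0, 0 and 2 with TGF-β, and 2, 5 and 12 in monoculture, and was too low to test. Of the protein-coding genes next to the cluster, chosen after the cluster's values were seen, Map4k4 rose in co-culture against monoculture (0.54 ± 0.08, limma adjusted p = 1.34e-04) and Slc9a2 fell (-2.56 ± 0.34, adjusted p = 4.49e-05). Slc9a4, between Il18rap and Slc9a2, gave -1.06 ± 0.39 and did not pass (adjusted p = 0.0532).

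**Figure D3:**
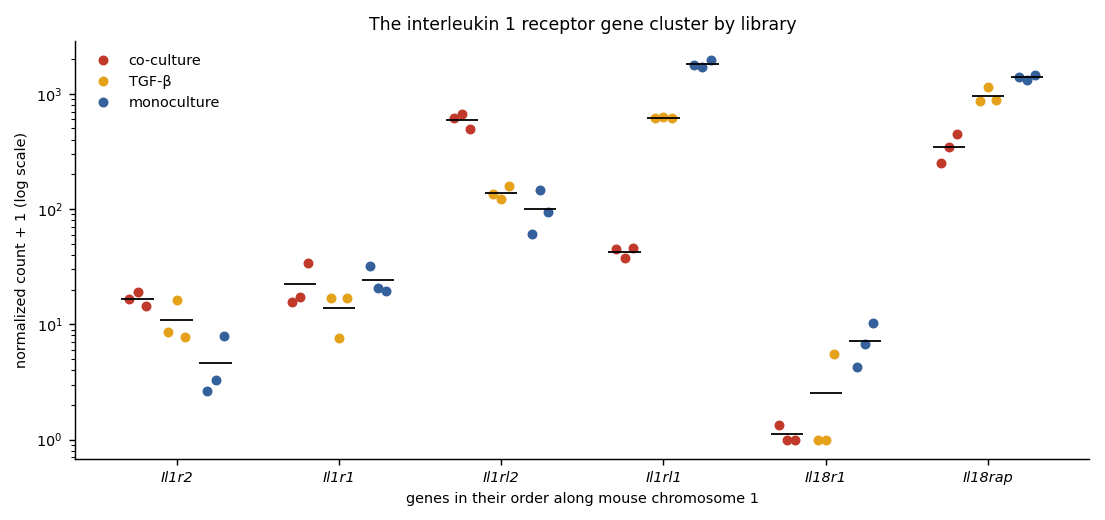
Normalized count plus 1 on a log axis for the 6 receptor genes in chromosome order; points are libraries and lines are means of 3, with co-culture left, TGF-β in the middle and monoculture right for each gene. Il1rl2 is highest in co-culture at a mean of 591, while Il1rl1 and Il18rap are lowest there at 41.6 and 345.

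Il18 (ENSMUSG00000039217, chromosome 9, 50554827 to 50581840, plus strand) was higher in co-culture by a smaller amount. Its values were 614, 554 and 482 in co-culture, 419, 382 and 323 with TGF-β, and 255, 359 and 391 in monoculture. Co-culture stood above both other groups, which overlapped. It rose against monoculture by a log2 fold change of 0.71 ± 0.18 (SE, limma adjusted p = 0.00820), and this was lost when replicate 1 was left out of all groups (0.45, adjusted p = 0.184). Co-culture against TGF-β (0.54 ± 0.18, adjusted p = 0.0432) was called in 11 of 19 alternatives. That call was lost with no filter, with replicates 2 and 3 only and under the replicate block (0.0627). It was also lost without co-culture 1 (0.172), co-culture 2 (0.121) or any 1 of the TGF-β libraries (0.0550 to 0.115). TGF-β against monoculture gave 0.17 (95% interval -0.22 to 0.56, adjusted p = 0.742).

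Il18bp (ENSMUSG00000070427, chromosome 7, 102014885 to 102018690, minus strand), whose product neutralizes IL-18, moved alongside. Its values were 387, 388 and 305 in co-culture, 204, 173 and 229.5 with TGF-β, and 221, 247 and 212 in monoculture. It rose in co-culture against monoculture (0.64 ± 0.18, SE, limma adjusted p = 0.0153), a call lost without co-culture 1 (0.0765) or co-culture 2 (0.0780), and against TGF-β (0.80 ± 0.18, adjusted p = 0.00456). With replicates 2 and 3 only, neither call held (adjusted p = 0.182 against monoculture and 0.0917 against TGF-β). Per kb of exon, Il18bp stood at 0.223 ± 0.0137 of Il18 in co-culture, 0.187 ± 0.0480 with TGF-β and 0.238 ± 0.0552 in monoculture (SD, n = 3 each), with overlapping ranges. Exons of Numa1 overlap those of Il18bp on the opposite strand, and whether strand was used in counting is not stated. Numa1 averaged 31903 in co-culture, 33555 with TGF-β and 34688 in monoculture.

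Nlrp3 (ENSMUSG00000032691, chromosome 11, 59541568 to 59566956, plus strand), the inflammasome sensor, was abundant in every library. Its values were 7569, 8079.7 and 7556 in co-culture, 5853, 7087 and 7002 with TGF-β, and 6474, 7298 and 6601 in monoculture. Co-culture lay just above both other groups, but the log2 difference from monoculture was 0.19 (95% interval -0.00 to 0.38, limma adjusted p = 0.133), from TGF-β 0.22 (0.03 to 0.42, adjusted p = 0.0869) and of TGF-β from monoculture -0.03 (-0.23 to 0.16, adjusted p = 0.920).

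Ranked per kb of exon, Nlrp3 led in co-culture at 1907 ± 73.6, followed by Il1rn (728 ± 179.6) and Il18 (533 ± 63.7). Il1rap (142 ± 5.36), Il1b (138 ± 21.2) and Il18bp (119 ± 15.8) came next, with Il1b within its SD of both others. Il1a (51.4 ± 10.3), Il1r2 (8.19 ± 1.23), Il1rl1 (6.04 ± 0.620) and Il1r1 (3.36 ± 1.62) closed the order. With TGF-β Nlrp3 (1638 ± 169.8) and Il1rn (1427 ± 197) overlapped between libraries, and Il1rl1 (90.0 ± 1.42) stood 5th. In monoculture Il1rn led at 2645 ± 343, Il1rl1 was 4th at 263 ± 20.2, near Il18 (325 ± 69.2), and Il1b was last (SD over 3 libraries in each case).

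**Figure D4:**
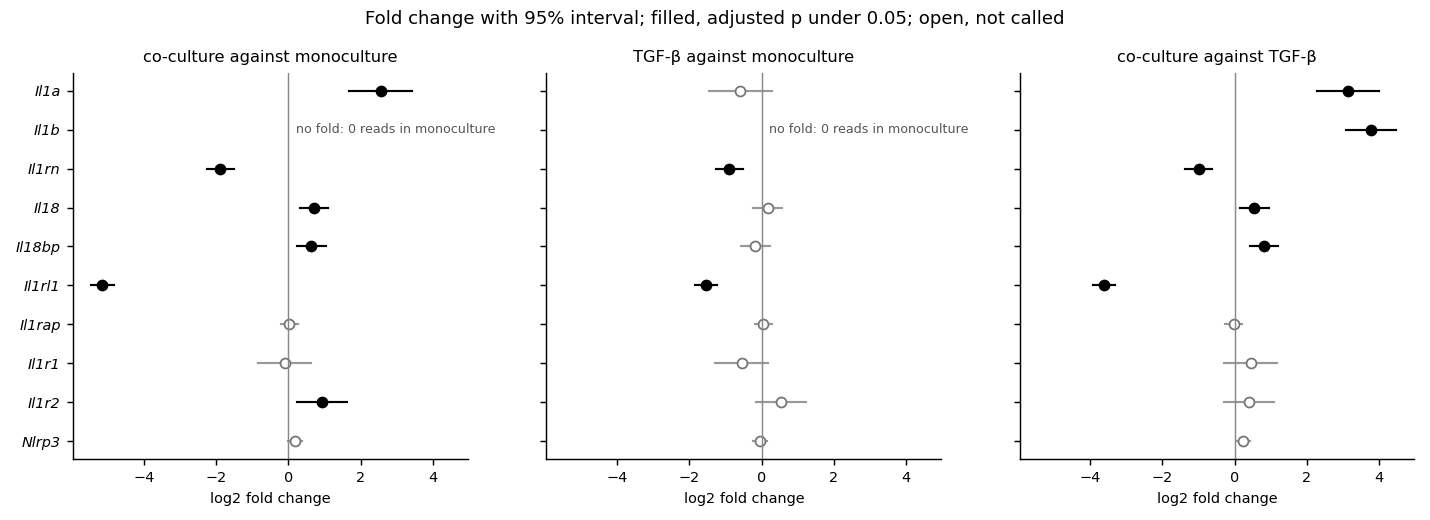
Log2 fold change (horizontal axis) of the 10 genes in each comparison with its 95% interval; filled points have an adjusted p under 0.05 and open points do not. Il1rl1 is the leftmost point in each panel, at -5.14, -1.53 and -3.61, and no fold is drawn for Il1b against monoculture, where it had 0 reads.

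The genes whose levels ran closest to Il1rl1 over the 9 libraries (Pearson's r of log2 of the normalized count plus 10) were Ptk2, the focal adhesion kinase (0.998), Usp6nl (0.998), Otud7b, a deubiquitinase (0.997), and Lpl, the lipoprotein lipase (0.997). Lpl averaged 19338 in co-culture, 234810.0 with TGF-β and 512480.0 in monoculture. Those closest to Il1b were the transcription factor gene Trps1 (0.995), the perlecan gene Hspg2 (0.994), the phosphatase gene Ptpn1 (0.992) and the GTPase gene Gbp8 (0.992). Hspg2 averaged 535 in co-culture, 8.21 with TGF-β and 0.541 in monoculture. The 9 points fall into 3 groups of shared treatment, so these values describe a common order of groups.

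Beyond the family, genes of the pathway were counted from 5 lists. Of 3 other ligand genes in the table (Il33, Il1f5, now Il36rn, and Il1f9, now Il36g) none reached the filter. Of 4 other receptor genes with a row, 3 were tested: Il1rl2 rose, Il18rap fell, and Sigirr, a brake on IL-1 receptor signaling, did not pass in co-culture against monoculture (0.21 ± 0.25, limma adjusted p = 0.576).

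Of 21 inflammasome and processing genes 5 were called higher and 4 lower in co-culture against monoculture, not far from the 15.9% and 15.0% over all tested genes (median log2 fold change -0.02, against 0.03 over all tested genes). Casp1, which encodes the protease that matures IL-1β and IL-18, averaged 3160 ± 203 in co-culture, 5392 ± 647 with TGF-β and 5682 ± 317 in monoculture (SD, n = 3 each) and fell against monoculture (log2 fold change -0.85 ± 0.10, limma adjusted p = 1.11e-05). Gsdmd, the pore-forming protein through which IL-1β leaves the cell, fell too (-0.52 ± 0.07, adjusted p = 8.19e-05), as did Txnip, which can bind NLRP3 (-0.94 ± 0.11, adjusted p = 1.64e-05). P2rx7, the ATP-gated channel that triggers the NLRP3 inflammasome, rose (0.67 ± 0.08, adjusted p = 2.67e-05). With TGF-β against monoculture limma called 0 of the 21, against 2 by DESeq2.

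Receptor signaling genes gave 8 called higher and 1 lower of 18 in co-culture against monoculture, beside 15.9% and 15.0% over all tested genes (median 0.19), and 5 in all when replicate 1 was left out of every group. Peli2, a ubiquitin ligase that acts on the IRAK kinases, averaged 2210.0 ± 269.9 in co-culture, 813 ± 87.0 with TGF-β and 537 ± 23.4 in monoculture (SD, n = 3 each), a log2 fold change of 2.02 ± 0.12 for co-culture against monoculture (limma adjusted p = 2.14e-08). Tab2 (0.53 ± 0.08) and Irak4 (0.49 ± 0.08), an adaptor and a kinase of the pathway, rose as well. Ikbkg, the NEMO subunit of the IκB kinase complex, fell (-0.81 ± 0.07, adjusted p = 1.24e-06). With TGF-β against monoculture Peli2 rose (0.59 ± 0.12, adjusted p = 0.0205) and Ikbkg fell (-0.31 ± 0.07, adjusted p = 0.0458), but 0 or 1 of the 18 genes was called without any 1 library other than TGF-β 3.

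NF-κB response genes, many of which IL-1 and other stimuli induce, gave 3 called higher and 10 lower of 20 tested in co-culture against monoculture, beside the same shares over all tested genes (median -0.33, against 0.03). Tnip3, a partner of the ubiquitin-editing enzyme A20, averaged 1395 ± 304 in co-culture, 12071 ± 400.1 with TGF-β and 16935 ± 90.5 in monoculture (SD, n = 3 each) and fell against monoculture (log2 fold change -3.61 ± 0.12, limma adjusted p = 7.33e-11). Tnf fell (-0.76 ± 0.14, adjusted p = 6.78e-04), while Nfkbiz, an inducible nuclear IκB protein, rose (1.43 ± 0.18, adjusted p = 9.36e-05), as did Bcl3 (0.74 ± 0.11, adjusted p = 1.68e-04). With TGF-β against monoculture Tnip3 was the 1 gene of the 20 called (-0.49 ± 0.12, limma adjusted p = 0.0429), and 0 were called without any 1 of the monoculture libraries. In co-culture against TGF-β, where 13.4% of all tested genes were higher and 11.9% lower, the lists gave 4 higher and 4 lower of 21 inflammasome genes, 8 and 1 of 18 receptor signaling genes, and 4 and 7 of 20 NF-κB response genes. Tnf and most called genes of the NF-κB list were lower in co-culture, while Il1a and Il1b were higher there. Il1a and Il1b reached the filter only through the co-culture libraries, and a link to this list was not tested.

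**Figure D5:**
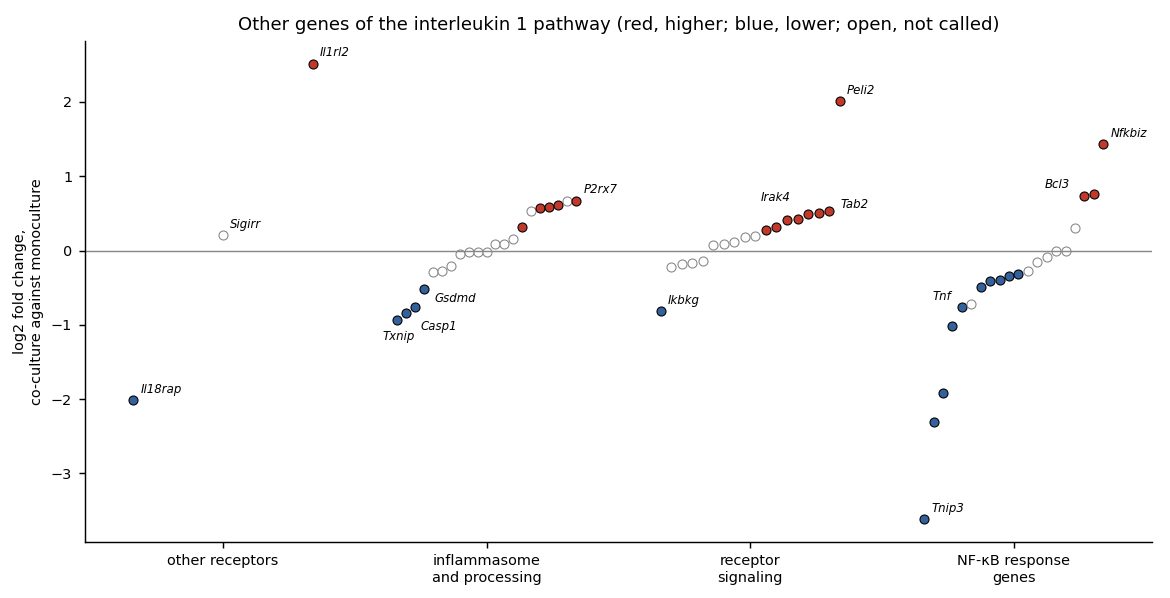
Log2 fold change in co-culture against monoculture (vertical axis) of each tested gene in 4 pathway lists, ordered by value within its list; red points were called higher, blue lower and open points were not called. Tnip3 is lowest at -3.61 and Il1rl2 highest at 2.52.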

How the data were processed

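RNA-seq of 9 sorted macrophage libraries was used. The deposited table holds a signal value for every gene in each library. The submitters' processing notes name bcl2fastq 2.20, STAR 2.7.3, DESeq2 1.24.0, R 3.6.1 and build mm10. The notes give them no role, and the counting program, its strand setting and the annotation are not given in the sources used here. The library kit was stranded and took 10 ng RNA, per the labels' protocols. In every column of the deposited signal all values were whole multiples of the smallest (100% within 0.05), so they are read counts divided by a size factor, and reads were recovered from them.

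Normalized counts were tested with limma 3.58.1 in R 4.3.3 (trend and robust empirical Bayes) on log2 of the value plus 10, which understates changes of low genes, for the 16328 genes that reached 10 in 3 or more libraries. The group was the only factor, 3 contrasts came from 1 fit, with Benjamini-Hochberg adjustment over all tested genes. Alternatives included edgeR 4.0.16 and DESeq2 1.42.0 on recovered reads. The scripts were tested on simulated data. Positions and exon lengths are from GENCODE M21 (mm10). The length of a gene was that of all its annotated exons joined, whichever forms were expressed, so values per kb compare different genes only roughly. Upper limits of 3 reads cover counting error only. Named were all 10 genes, the 4 of smallest p per list, and the 4 of most like pattern for Il1rl1 and Il1b without numbered gene models. The genes and lists were chosen with earlier results of these data known.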

Additional observations from a re-analysis of the deposited data

How the results depend on the processing

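Each result was recomputed under 19 alternatives: another added constant (1 or 50), no filter or one at 50, the replicate number as a block, edgeR, DESeq2, TMM rescaling, only the 2 groups compared, replicates 2 and 3 only, and without each library. Il1rl1 and Il1rn in both comparisons of co-culture, Il1a and Il1b against both other groups, and Il1rl1 with TGF-β were called under all of those that gave a value. Il1r2 gave none at a filter of 50. Il1a, Il1b and Il1r2 reached the main filter only through the co-culture libraries, so their calls carry that limit. The number of the 10 genes called in co-culture against monoculture was 7, beside 30.8% of all tested genes. It fell to 4 with replicates 2 and 3 only and ranged from 5 to 7 without 1 library. With TGF-β against monoculture it was 2, beside 2.52% of all tested genes. It was 3 with an added constant of 1, with edgeR or with DESeq2, and 1 with the replicate block or with replicates 2 and 3 only. Without 1 library it ranged from 1 to 2.

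Over all genes, calls in co-culture against monoculture numbered 5033 (30.8% of 16328), 2781 with replicates 2 and 3 only, and 3610 to 5468 without 1 library. With TGF-β against monoculture they numbered 412 (2.52%), 388 with an added constant of 1, 376 with edgeR, 907 with DESeq2 and 397 with the replicate block. They numbered 61 with replicates 2 and 3 only, and 165 to 935 without 1 library (268 without monoculture 1, 249 without monoculture 2, 165 without TGF-β 1, 248 without TGF-β 2 and 935 without TGF-β 3). In co-culture against TGF-β they numbered 4128, 1922 with replicates 2 and 3 only, and 2669 to 4601 without 1 library (2735 without co-culture 1 and 2669 without co-culture 2). The fits that leave libraries out also hold fewer libraries, and the causes of these differences were not tested.

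Changes of sign were limited to differences that were not called. Without 1 library, Il1r1 in co-culture against monoculture ran from -0.35 to 0.063, Il1rap from -0.081 to 0.11 in that comparison, -0.054 to 0.14 with TGF-β against monoculture and -0.080 to 0.0038 in co-culture against TGF-β. With TGF-β against monoculture Il18 ran from -0.0091 to 0.29 and Nlrp3 from -0.083 to 0.055. With replicates 2 and 3 only, Il1r1 (0.22) and Sigirr (-0.041) in co-culture against monoculture, and Il18 (-0.091) and Nlrp3 (0.021) with TGF-β against monoculture, changed sign.

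Whether equal replicate numbers mark the same mouse is not stated. Ddx3y sets replicate 1 apart in every group, but deviations from the group means correlated by -0.147 to 0.372 over 9 pairs of equal number, and 3 of 9 exceeded 0.1. With the number as a block, Il1rn with TGF-β (adjusted p = 0.0723), Il18 in co-culture against TGF-β (0.0627) and Il1r2 in co-culture against monoculture (0.0612) were no longer called.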
